A study of Homo sapiens with 63 samples.

Results

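Metallothioneins and zinc transporters were followed as 8 genes in cells of the human kidney-derived line HEK293T exposed to forms of ibufenac or ibuprofen. The genes were picked by name from the 58336 genes in the count table: 4 metallothioneins (MT1E, MT1F, MT1X, MT2A), the metal-sensing transcription factor MTF1, the zinc exporter SLC30A1 and the zinc importers SLC39A6 and SLC39A10. Of these 8, 7 passed the filter on low counts and were tested among 19352 genes; MT1E did not.

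Per the labels, the cells expressed the Halo protein tag and a precursor carrying a Halo ligand (Ht-Pre-AG-ibufenac for one drug, Ht-Pre-AG-ibuprofen for the other) was given for 2 h at 10 µM. Washing came next, and then 365 nm light (5 mW/cm2) lasting 3 min. The 7 arms were Ibufenac probe, Ibuprofen probe, Ibufenac photocaged, Ibuprofen photocaged, Ibufenac bolus, Ibuprofen bolus and DMSO, the vehicle, each with 3 libraries at 6 h, 12 h and 18 h. The labels do not state how the probe and photocaged forms differ, which arms were lit, the bolus dose, whether DMSO cells were lit, or whether replicates are separate cultures. The p-values may therefore measure technical spread. Ibufenac is a relative of ibuprofen that lacks its α-methyl group.

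The 63 libraries held 12.1 to 38.4 M counts each, with a median of 19.6 M. Of 8 marker genes chosen for this line, 7 had a median over 1 CPM (counts scaled to library size), PAX2 being the exception at 0.0643 CPM. Of 8 hepatocyte markers TF and ALB exceeded 1 CPM, at medians of 6.27 and 1.03 CPM, as did 2 of 4 fibroblast markers, COL1A1 at 3.13 and COL3A1 at 2.14 CPM, and no blood marker of 5. What these transcripts contribute to the results was not tested. In bulk RNA, a lower share of cells making a transcript and less transcript per cell cannot be told apart.

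Zinc inside a cell is buffered by metallothioneins, small cysteine-rich proteins that bind zinc, copper and cadmium through thiol groups. When free zinc rises, MTF1 binds metal response elements in DNA and switches on metallothionein genes and SLC30A1, whose product pumps zinc out across the plasma membrane. SLC39A6 and SLC39A10 (ZIP6 and ZIP10) carry zinc into the cytoplasm, and in mouse and zebrafish MTF1 represses Slc39a10 through metal response elements near its start. Metallothionein thiols also react with electrophiles, and the genes respond to oxidative stress, which is one reason to look at them in drug-exposed cells.

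Promoter sequences of the metal-responsive genes are shown because these are the elements through which MTF1 acts. RefSeq promoter windows on GRCh38.p14, from 250 bases before to 50 after a gene's first transcribed base, were matched for 6 of the 8 genes. Match positions refer to these RefSeq starts. The gene coordinates given further below come from GENCODE, whose gene starts differ from them. The SLC39A10 gene starts there at 195575977, upstream of both of its RefSeq windows, and the sequence at that start was not searched. MT1E and MT1F were not matched. Capitals mark metal response elements, searched as TGCACNC or TGCGCNC on both strands, and each sequence reads 5′ to 3′ along the gene's strand. No match overlaps another one in these windows. The first is chr16:56682220-56682519 (plus strand), the second chr16:56608334-56608633 (plus), the third chr1:211579112-211579411 (minus) and the last chr2:195656976-195657275 (plus), which is the second of 2 RefSeq starts of SLC39A10.
MT1X: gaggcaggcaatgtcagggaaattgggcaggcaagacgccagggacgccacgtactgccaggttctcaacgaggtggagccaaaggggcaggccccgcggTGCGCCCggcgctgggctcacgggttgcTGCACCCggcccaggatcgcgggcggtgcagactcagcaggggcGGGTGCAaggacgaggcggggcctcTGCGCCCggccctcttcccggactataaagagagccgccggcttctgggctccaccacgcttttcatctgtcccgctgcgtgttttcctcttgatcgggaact
MT2A: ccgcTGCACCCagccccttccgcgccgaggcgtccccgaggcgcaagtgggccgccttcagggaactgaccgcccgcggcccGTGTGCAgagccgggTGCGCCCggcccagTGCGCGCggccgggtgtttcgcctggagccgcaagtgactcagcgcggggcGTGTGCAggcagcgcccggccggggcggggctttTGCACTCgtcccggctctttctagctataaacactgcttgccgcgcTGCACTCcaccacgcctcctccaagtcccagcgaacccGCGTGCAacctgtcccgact
SLC30A1: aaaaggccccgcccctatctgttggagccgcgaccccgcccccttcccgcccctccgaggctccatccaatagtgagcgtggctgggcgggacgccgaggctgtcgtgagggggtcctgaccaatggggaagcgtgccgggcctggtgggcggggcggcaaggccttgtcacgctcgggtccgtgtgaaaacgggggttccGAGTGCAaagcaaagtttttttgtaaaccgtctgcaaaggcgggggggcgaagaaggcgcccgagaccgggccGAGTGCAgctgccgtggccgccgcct
SLC39A10: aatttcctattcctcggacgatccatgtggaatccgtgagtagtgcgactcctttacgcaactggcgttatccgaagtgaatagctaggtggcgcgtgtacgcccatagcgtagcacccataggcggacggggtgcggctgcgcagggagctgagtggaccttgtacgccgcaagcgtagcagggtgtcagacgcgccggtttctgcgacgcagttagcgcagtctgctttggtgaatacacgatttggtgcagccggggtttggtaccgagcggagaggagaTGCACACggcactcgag

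MT1X held 4 matches and MT2A held 8, while SLC30A1 held 2, SLC39A6 held 1 and MTF1 held none. Of 35116 human promoter windows of this length 29.6% held at least 1 match, 0.601% held 4 or more and 0.074% held 6 or more. With the first transcribed base counted as 0, the 4 matches of MT1X start at -150, -122, -78 and -53. Those of SLC30A1 start at -49 and 24, and the single match of SLC39A10 at its second start begins at 33, whereas its first start had no match. The antioxidant response element, searched as TGACNNNGC on both strands, occurred once each in MT1X, MT2A and SLC30A1 (13.3% of all windows), and none of those overlapped a metal response element. A match describes the letters only.

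Per unit of transcript length the importers were the most abundant of the 8 genes. In the 9 DMSO libraries SLC39A6 averaged 34 ± 4 FPKM, SLC39A10 21.5 ± 3.8, MT1X 11.3 ± 4.7, SLC30A1 6.84 ± 1.7, MT2A 3.62 ± 1.2 and MTF1 2.29 ± 0.52 (SD). FPKM is a level scaled for length and depth, as deposited. Each neighbour in that order overlapped the next: the highest SLC39A10 library (29.2 FPKM) lay above the lowest SLC39A6 library (28 FPKM), and the highest MT2A library (5.09 FPKM) lay above the lowest SLC30A1 library (4.56 FPKM). MT1F was barely detected, with 0 to 11 counts per library and none in 18 of 63, for a DMSO mean of 0.323 ± 0.43 FPKM. MT1E had 0 counts in all 63 libraries, where 3 counts would be 0.0769 to 0.224 CPM depending on depth. The other 8 metallothionein genes looked up (MT1A, MT1B, MT1G, MT1H, MT1L, MT1M, MT3 and MT4) were also at 0 counts in every library. Metallothionein genes lie in a cluster on chromosome 16, and several of them are similar in sequence. How reads matching more than 1 of them were assigned is not given in the sources used here, so the split between them is uncertain.

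To see which of the 7 tested genes differed from the vehicle, each arm's 9 libraries were compared with the 9 DMSO libraries over the 3 times, with p-values adjusted over all 19352 tested genes and a threshold of 0.05 (edgeR). The differences fell on 3 genes. MT1X was lower with the Ibuprofen probe and Ibuprofen photocaged, SLC30A1 was higher with both photocaged forms, and SLC39A10 was lower with the ibufenac probe and the ibufenac bolus. Called genes numbered 1 of 7 for the Ibufenac probe (13.2% of all tested genes were called in that comparison), 1 for the Ibuprofen probe (8.43%), 1 for Ibufenac photocaged (7.49%), 2 for Ibuprofen photocaged (4.28%) and 1 for the Ibufenac bolus (0.0103%). For the Ibuprofen bolus edgeR called 0 of 7 (0.0258% of all genes); DESeq2 called 1, and 2 were under 0.05 before adjustment. In both probe arms 1 call among 7 genes is near the share called among all genes. The median log2 fold change of the 7 genes lay between -0.011 and 0.122 over the 6 comparisons, and that of all tested genes between -0.01 and 0.005. All 6 comparisons share the same DMSO libraries.

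**Figure D1:**
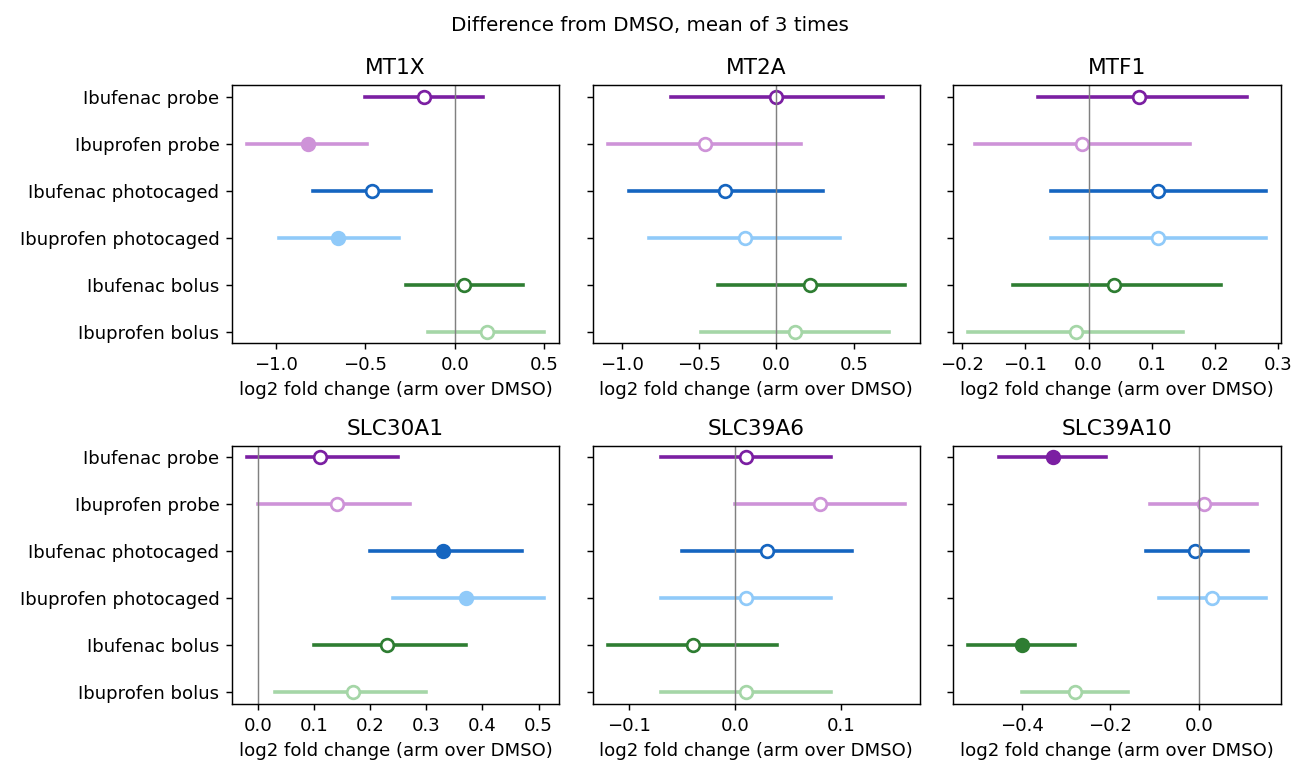
Log2 fold change of each arm over DMSO, averaged over 6, 12 and 18 h (x axis), for 6 genes (panels) and 6 arms (rows, 9 libraries each). Points are edgeR estimates with 95% intervals, filled where the adjusted p was under 0.05; MT1X lies left of 0 with the Ibuprofen probe (-0.82), SLC30A1 lies right of 0 with both photocaged forms (0.33 and 0.37), and SLC39A10 lies left of 0 with the Ibufenac probe (-0.33) and the Ibufenac bolus (-0.40).

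MT1X (ENSG00000187193, chromosome 16, 56682424 to 56684196, plus strand, GRCh38) was the metallothionein with the highest level per length, and its group means declined from 6 h to 18 h in every arm. In Ibuprofen probe libraries it stood at 4.58, 3.02 and 4.48 CPM at 6 h, 2.32, 2.71 and 3.44 CPM at 12 h and 1.94, 1.5 and 2.88 CPM at 18 h. In DMSO libraries it stood at 6.8, 8.99 and 8.07 CPM at 6 h, 4.77, 4.85 and 4.69 CPM at 12 h and 2.77, 3.69 and 3.99 CPM at 18 h. Every Ibuprofen probe library was below every DMSO library at 6 h and at 12 h, and at 18 h one probe library overlapped. Over the 3 times MT1X fell with the Ibuprofen probe by a log2 change of -0.82 ± 0.17 (SE, n = 9 libraries each, adjusted p = 0.000965, edgeR), which is 0.566 of the DMSO level.

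Ibuprofen photocaged libraries held 6.08, 4.71 and 6.97 CPM of MT1X at 6 h, 2.18, 2.87 and 3.61 CPM at 12 h and 1.45, 1.94 and 2.6 CPM at 18 h. These overlapped DMSO at 6 h and lay below every DMSO library at 12 h and 18 h. The averaged fall was -0.65 ± 0.17 (adjusted p = 0.0146). Ibufenac photocaged libraries ranged from 2.2 to 6.09 CPM with a median of 3.35, and the difference of -0.46 ± 0.16 did not pass (adjusted p = 0.0776), although without Ibufenac photocaged 12 h replicate 3, at 5.63 CPM, it was -0.57 with adjusted p = 0.0305. With the Ibufenac probe the difference was -0.17 (95% interval -0.50 to 0.16), and both bolus arms sat near the vehicle, at 0.05 (-0.27 to 0.38) with ibufenac and 0.18 (-0.15 to 0.50) with ibuprofen.

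At single times 1 test of MT1X passed, that of the Ibuprofen probe at 6 h (-0.99 ± 0.28, adjusted p = 0.0163; 11.4% of all genes were called there). It did not pass without Ibuprofen probe 6 h replicate 2 (-0.81, adjusted p = 0.135), without DMSO 6 h replicate 2 or 3 (adjusted p = 0.0827 and 0.0562), or after removal of trends with GC content and length (-0.86, adjusted p = 0.0513). Both averaged calls held under each of these settings. MT1X had 26 to 254 counts per library.

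The bolus arms allow a test of MT1X that uses no DMSO library. Against the bolus of the same drug MT1X was lower in Ibuprofen probe libraries (-1.0 ± 0.17, adjusted p = 0.000123; 3.7% of all genes called) and in Ibuprofen photocaged libraries (-0.82 ± 0.16, adjusted p = 0.00156; 3.43%). It was lower in Ibufenac photocaged libraries too (-0.52 ± 0.16, adjusted p = 0.047; 6.05%), but that call ended when any of 13 of the 18 libraries was left out, with values from -0.45 to -0.54 and adjusted p reaching 0.122, without Ibufenac bolus 18 h replicate 2. It also ended without the filter on low counts (-0.52, adjusted p = 0.0516). In Ibufenac probe libraries the difference from the Ibufenac bolus was -0.22 (95% interval -0.55 to 0.10), and edgeR called 0 of the 7 genes there, with 0 at an unadjusted p under 0.05 (11.2% of all genes called). The share of the bolus level that remained was 0.501 for the Ibuprofen probe and 0.565 for Ibuprofen photocaged.

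MT2A (ENSG00000125148, chromosome 16, 56608199 to 56609497, plus strand), a widely expressed human metallothionein, had 10 to 114 counts per library here. At 6 h it had 4.1, 3.66 and 5.13 CPM in Ibufenac probe libraries, 1.19, 0.42 and 2.1 CPM in Ibuprofen probe libraries and 2.51, 3.52 and 4.08 CPM in DMSO libraries. The Ibuprofen probe libraries lay below every DMSO library, but the difference did not pass in edgeR (-1.47 ± 0.56, adjusted p = 0.0739); it passed without the filter on low counts (0.00541) and in DESeq2 (0.0365). At 12 h the order of the probe arms was the other way round, with 1.23, 0.882 and 2.07 CPM in Ibufenac probe libraries and 3.04, 3.6 and 2.7 CPM in Ibuprofen probe libraries. The probes' difference in MT2A at 12 h did not pass in edgeR. Nor did the edgeR test of a change in arm effects with time (adjusted p = 0.0889). With the settings used throughout no averaged or single-time test of MT2A against DMSO passed, and the averaged intervals ran from -1.09 to 0.83 at their outer bounds over the 6 arms. MT1F means lay between 0.0804 and 0.247 CPM in all arms, and at that depth no difference was detectable.

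**Figure D2:**
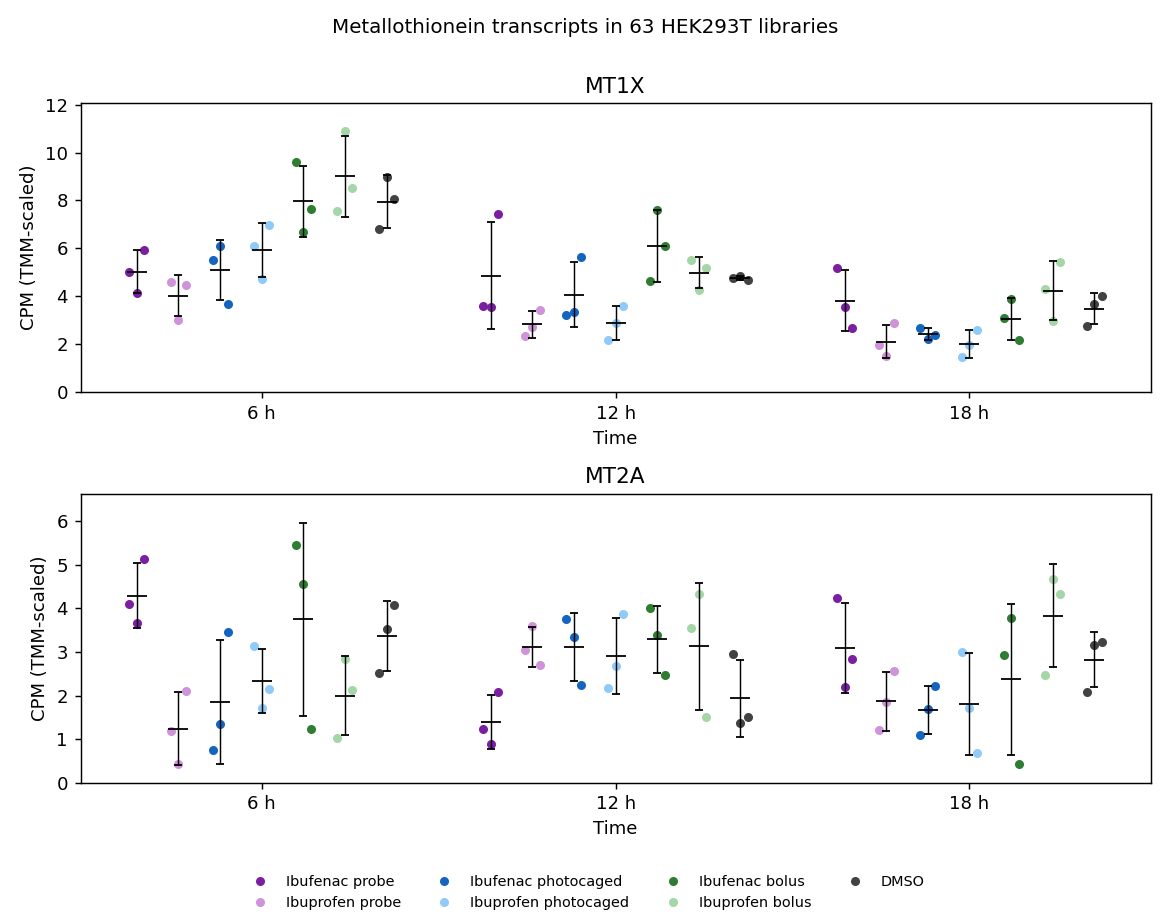
MT1X and MT2A in CPM (y axis, scaled with TMM factors) at 6, 12 and 18 h (x axis), with 1 point per library and bars for the mean and SD of 3 libraries. Group means of MT1X are lower at 18 h (the lowest 2 CPM) than at 6 h (the highest 9.01 CPM) in all 7 arms, and the Ibuprofen probe points lie below DMSO at 6 and 12 h; MT2A shows wide scatter within groups.

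MTF1 (ENSG00000188786, chromosome 1, 37809567 to 37859620, minus strand), the sensor itself, did not pass against DMSO in any arm or at any time. It ranged from 11.8 to 31 CPM over the 63 libraries, with arm means from 17.2 CPM (Ibuprofen probe) to 18.8 CPM (Ibufenac photocaged) and 17.4 CPM in DMSO. The averaged differences lay between -0.02 and 0.11, and their 95% intervals between -0.19 and 0.28. At 18 h Ibufenac photocaged libraries held 19.6, 18.6 and 19.8 CPM, against 14.5, 13.6 and 17.6 CPM in DMSO libraries. These groups did not overlap, and the difference was 0.34 ± 0.15 (adjusted p = 0.18; 2.86% of all genes called).

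SLC30A1 (ENSG00000170385, chromosome 1, 211571568 to 211578742, minus strand) was higher with both photocaged drugs, and its group means climbed from 6 h to 18 h in every arm. Ibufenac photocaged libraries held 34.8, 38.3 and 30.1 CPM at 6 h, 50.2, 49.4 and 46.2 CPM at 12 h and 63, 56.5 and 59.6 CPM at 18 h. Ibuprofen photocaged libraries held 32.5, 37.3 and 40.2 CPM at 6 h, 54.3, 48.5 and 46.5 CPM at 12 h and 47.4, 65.7 and 64.9 CPM at 18 h. DMSO libraries held 26, 27.2 and 25.7 CPM at 6 h, 34.5, 40.8 and 43.8 CPM at 12 h and 46, 47 and 50.2 CPM at 18 h. With photocaged ibufenac every library exceeded every DMSO library of its time. With photocaged ibuprofen this held at 6 h and 12 h, and at 18 h 1 library of 47.4 CPM overlapped.

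Averaged over the times SLC30A1 rose by 0.33 ± 0.07 with Ibufenac photocaged (adjusted p = 0.000587) and by 0.37 ± 0.07 with Ibuprofen photocaged (adjusted p = 0.000307), or 1.26-fold and 1.29-fold. Leaving out any single library kept both calls, with changes of 0.30 to 0.36 and 0.34 to 0.42. In the other arms the differences were positive and did not pass, at 0.11 ± 0.07 with the Ibufenac probe, 0.14 ± 0.07 with the Ibuprofen probe, 0.23 ± 0.07 with the Ibufenac bolus (adjusted p = 0.276, and 0.0487 without a filter) and 0.17 ± 0.07 with the Ibuprofen bolus. At 6 h the 3 DMSO libraries lay below every library of all arms except the Ibufenac probe, in which 1 library was at 22.9 CPM, so the shared controls enter each of those differences. The test at 6 h passed for Ibuprofen photocaged (0.48 ± 0.12, adjusted p = 0.03; 0.992% of all genes called), but not when any 1 of 5 of its 6 libraries was left out (adjusted p up to 0.166, without Ibuprofen photocaged 6 h replicate 3). Other arms missed in edgeR at 6 h but passed under another setting. These were Ibufenac photocaged (0.39, adjusted p = 0.0575, and 0.0214 in DESeq2) and the Ibuprofen probe (0.32, adjusted p = 0.0716, and 0.0316 in DESeq2). The Ibuprofen bolus was a further one (0.43, adjusted p = 0.293, and 0.0103 without a filter).

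Comparisons without DMSO libraries gave smaller values for SLC30A1. The photocaged form minus the bolus was 0.10 (95% interval -0.03 to 0.24) for ibufenac and 0.20 (0.07 to 0.34, adjusted p = 0.0762) for ibuprofen. The probe minus the photocaged form was -0.22 ± 0.07 for ibufenac (adjusted p = 0.0579) and -0.23 ± 0.07 for ibuprofen (adjusted p = 0.149). None of these 4 tests of SLC30A1 passed with the settings used throughout, but 3 of them passed under others. For ibufenac, the probe against the photocaged form gave adjusted p = 0.0385 without a filter, 0.0467 with a replicate block and 0.0397 in DESeq2. For ibuprofen, the same comparison gave 0.0466 without a filter and 0.0354 with GC and length offsets, and the photocaged form against the bolus gave 0.0136 with those offsets and 0.0446 in DESeq2.

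SLC39A10 (ENSG00000196950, chromosome 2, 195575977 to 195737702, plus strand) was lower with the Ibufenac probe and the Ibufenac bolus, each at 6 h and over the 3 times. Ibufenac probe libraries held 68.6, 58.1 and 59 CPM at 6 h, 77.4, 87.5 and 78.8 CPM at 12 h and 127, 128 and 114 CPM at 18 h. Ibufenac bolus libraries held 64.5, 57.8 and 65.4 CPM at 6 h, 84, 80.6 and 86 CPM at 12 h and 101, 95.3 and 112 CPM at 18 h. DMSO libraries held 96.8, 78.8 and 94.3 CPM at 6 h, 100, 106 and 110 CPM at 12 h and 109, 119 and 162 CPM at 18 h. The Ibufenac probe and the Ibufenac bolus lay wholly below DMSO at 6 h and 12 h and overlapped it at 18 h.

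With the Ibufenac probe SLC39A10 fell at 6 h (-0.54 ± 0.10, adjusted p = 0.000189; 12.7% of all genes called) and at 12 h (-0.37 ± 0.10, adjusted p = 0.0214; 4.51%), and at 18 h the difference was -0.08 (95% interval -0.28 to 0.13; 2.69%). The 12 h call ended without any 1 of 4 of its 6 libraries, with adjusted p up to 0.103 without DMSO 12 h replicate 3. With the Ibufenac bolus it fell at 6 h (-0.53 ± 0.10, adjusted p = 0.0411), where 5 of 19352 genes were called (0.0258%). At 12 h the difference was -0.33 ± 0.10 (adjusted p = 0.997; edgeR called 0% of all genes, with 695 under 0.05 before adjustment, and DESeq2 called 6). At 18 h the bolus call (-0.34 ± 0.10, adjusted p = 0.0389; 5.03%) depended on 1 control: without DMSO 18 h replicate 3, at 162 CPM, the difference was -0.15 (adjusted p = 0.375). It also ended without Ibufenac bolus 18 h replicate 1, 2 or 3 (adjusted p = 0.0882, 0.0934 and 0.0989). The 6 h bolus call ended without any 1 of 4 of its 6 libraries, with values from -0.47 to -0.56 and adjusted p up to 0.212 without DMSO 6 h replicate 3. With RLE factors the 6 h bolus call ended too (-0.51, adjusted p = 0.0509, edgeR).

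The averaged change was -0.33 ± 0.06 with the Ibufenac probe (adjusted p = 5.43e-05) and -0.40 ± 0.06 with the Ibufenac bolus (adjusted p = 0.000269), and leaving out single libraries gave -0.27 to -0.37 and -0.34 to -0.44, all called. In a fit of the bolus and DMSO libraries alone the bolus value stayed at -0.40 but did not pass (adjusted p = 0.103). Ibuprofen bolus libraries were lower by -0.28 ± 0.06, with adjusted p = 0.0588 in edgeR and 0.00694 in DESeq2. They overlapped DMSO at 6 h (72.6 to 83.7 against 78.8 to 96.8 CPM). They lay wholly below it at 12 h (91.2 to 96.6 against 100 to 110 CPM) and at 18 h (91.6 to 100 against 109 to 162 CPM). The difference at 18 h was -0.44, with adjusted p = 0.0646 in edgeR and 0.015 in DESeq2. The Ibuprofen probe and both photocaged arms sat at the vehicle's level, at 0.01 (95% interval -0.11 to 0.13), -0.01 (-0.12 to 0.11) and 0.03 (-0.09 to 0.15).

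The difference between forms of the drug did pass. Against the bolus of the same drug, SLC39A10 was higher in Ibufenac photocaged libraries (0.40 ± 0.06, adjusted p = 7.73e-06), Ibuprofen photocaged libraries (0.30 ± 0.06, adjusted p = 0.00103) and Ibuprofen probe libraries (0.29 ± 0.06, adjusted p = 0.00159). Ibufenac probe libraries did not differ detectably from the Ibufenac bolus (0.07, 95% interval -0.05 to 0.19) and were lower than Ibufenac photocaged libraries (-0.32 ± 0.06, adjusted p = 0.000643; 2.68% of all genes called). The Ibuprofen probe minus Ibuprofen photocaged gave -0.02 (-0.14 to 0.10). In that comparison edgeR called 0 of the 7 genes, 1 had an unadjusted p under 0.05, DESeq2 called 0, and 0.0982% of all genes were called.

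**Figure D3:**
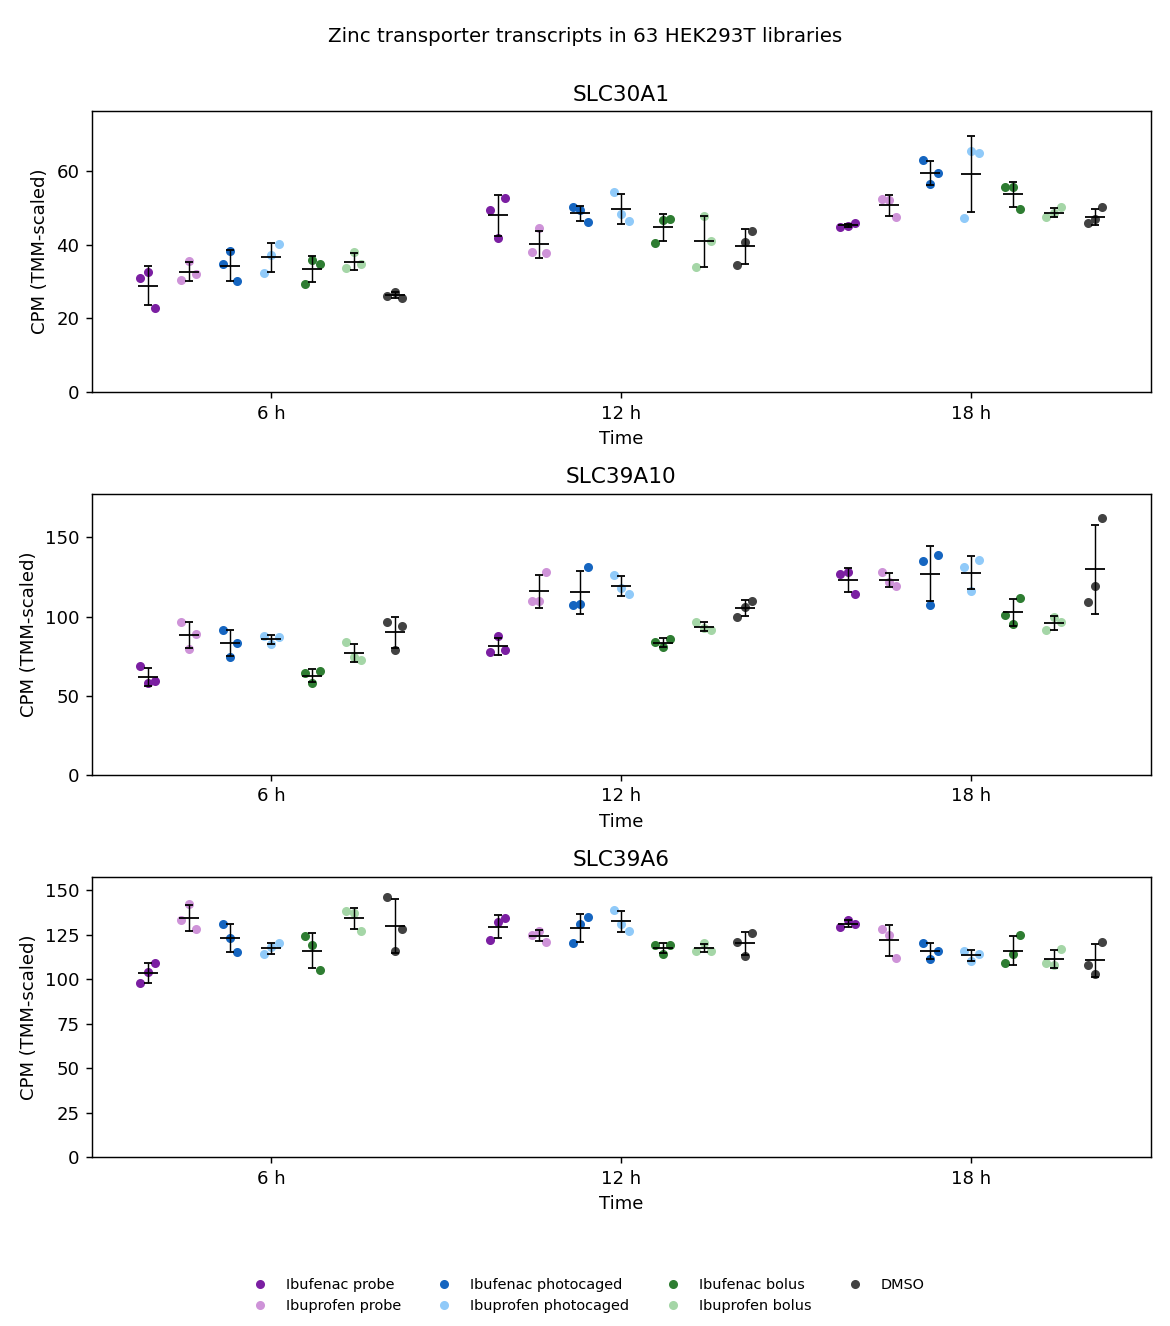
SLC30A1, SLC39A10 and SLC39A6 in CPM (y axis, scaled with TMM factors) at 6, 12 and 18 h (x axis), with 1 point per library and bars for the mean and SD of 3 libraries. At 6 h the Ibufenac probe (61.9 CPM) and Ibufenac bolus (62.5 CPM) group means of SLC39A10 lie below DMSO (90 CPM), and both photocaged arms lie above DMSO for SLC30A1 at each time.

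SLC39A6 (ENSG00000141424, chromosome 18, 36108532 to 36129385, minus strand) had 97.6 to 146 CPM over all libraries, and its averaged differences from DMSO lay between -0.04 and 0.08. It still differed with the Ibufenac probe in opposite directions at the ends of the time course. At 6 h it had 97.6, 104 and 109 CPM in Ibufenac probe libraries, against 146, 116 and 128 CPM in DMSO libraries, with no overlap (-0.33 ± 0.07, adjusted p = 0.000835). At 18 h it had 129, 133 and 131 CPM in Ibufenac probe libraries, against 108, 103 and 121 CPM in DMSO libraries, again with no overlap (0.24 ± 0.07, adjusted p = 0.0465). The 18 h call ended without any 1 of 5 of the 6 libraries (adjusted p up to 0.204, without DMSO 18 h replicate 2) and with RLE factors, a replicate block, no filter or GC and length offsets, the last giving 0.16 (adjusted p = 0.225).

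Over the 18 single-time comparisons with DMSO, 8 tests of members passed: those given above for MT1X, SLC30A1, SLC39A6 and SLC39A10. Of the 7 genes, 2 were called for the Ibufenac probe at 6 h (12.7% of all genes), 1 at 12 h (4.51%) and 1 at 18 h (2.69%). For the Ibuprofen probe and Ibuprofen photocaged it was 1 each at 6 h (11.4% and 0.992%). For the Ibufenac bolus it was 1 at 6 h (0.0258%) and 1 at 18 h (5.03%). In the remaining single-time comparisons edgeR called 0 of 7 genes. These were Ibufenac photocaged at 6, 12 and 18 h (3.03%, 1.58% and 2.86% of all genes called), the Ibuprofen probe at 12 and 18 h (1.97% and 1.78%), Ibuprofen photocaged at 12 and 18 h (0.677% and 2.21%), the Ibufenac bolus at 12 h (0%) and the Ibuprofen bolus at 6, 12 and 18 h (0%, 0.0103% and 0.0723%). For the Ibuprofen bolus at 6 h 2134 genes were under 0.05 before adjustment and DESeq2 called 2. In each of the comparisons without a call, between 0 and 3 of the 7 genes had an unadjusted p under 0.05. Over all 18 comparisons DESeq2 passed 12 tests of members. Its calls among all genes ranged from 2 (Ibuprofen bolus, 6 h) to 2748 (Ibuprofen probe, 6 h).

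Whether an arm's effect changed with time was tested by the arm by time interaction, in which 22.8% of all genes passed. It passed for SLC39A6 (F = 5.36, adjusted p = 0.000356), SLC39A10 (F = 2.95, adjusted p = 0.0213) and MTF1 (F = 2.63, adjusted p = 0.04). The MTF1 call ended in 18 of 63 fits without 1 library (adjusted p up to 0.0807, without Ibuprofen bolus 18 h replicate 3) with GC and length offsets (0.147) and without the filter on low counts (0.0716). The SLC39A10 call ended without Ibufenac probe 6 h replicate 3 (0.0595) or Ibufenac probe 18 h replicate 1 or 2 (0.0686 and 0.0726). For MT2A it gave adjusted p = 0.0889, for SLC30A1 0.215, for MT1X 0.407 and for MT1F 0.941. In DMSO cells alone SLC30A1 was higher at 12 h than at 6 h (0.59 ± 0.12, adjusted p = 0.000977; 3.82% of all genes called), and all 3 libraries at 12 h exceeded all 3 at 6 h. MT1X was at 4.77 CPM at 12 h and 7.95 CPM at 6 h in DMSO, a difference of -0.74 ± 0.27 that did not pass (adjusted p = 0.131). Between 18 h and 12 h in DMSO edgeR called 0 of 7 genes (2 with an unadjusted p under 0.05, 5.27% of all genes called); SLC39A10 gave 0.31 ± 0.10 (adjusted p = 0.0637).

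Ibufenac and ibuprofen, which differ by the α-methyl group, were compared within each form, averaged and at each matched time, in 12 comparisons. The doses of the bolus arms are not given, so equal dosing there is not known. Between the probes edgeR called 2 of the 7 genes in the average (2.82% of all genes) and 3 at 6 h (23.6%). It called 1 at 12 h (1.92%) and 0 at 18 h (0%). MT1X was higher in Ibufenac probe than in Ibuprofen probe libraries over the 3 times, at 4.56 ± 1.5 and 2.99 ± 1.1 CPM (SD, n = 9 each; 0.65 ± 0.17, adjusted p = 0.0188; 2.82% of all genes called). The call ended without Ibufenac probe 12 h replicate 3, at 7.43 CPM (0.50, adjusted p = 0.101), and without Ibufenac probe 18 h replicate 1 (adjusted p = 0.0774) or Ibuprofen probe 6 h or 18 h replicate 2 (adjusted p = 0.0504 and 0.0538). In a fit of the 2 probe arms alone it gave adjusted p = 0.0555. SLC39A10 was lower in Ibufenac probe libraries (-0.34 ± 0.06, adjusted p = 0.000221), and leaving out single libraries gave -0.31 to -0.37.

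At 6 h the probe pair differed in SLC39A10, with 68.6, 58.1 and 59 CPM for ibufenac and 96.5, 79.5 and 88.9 CPM for ibuprofen (-0.51 ± 0.10, adjusted p = 0.000259). SLC39A6 was lower as well, with 97.6, 104 and 109 CPM for ibufenac and 133, 142 and 128 CPM for ibuprofen (-0.37 ± 0.07, adjusted p = 0.0001). MT2A was higher with ibufenac (1.82 ± 0.56, adjusted p = 0.0126), from the values given above, none of which overlap. In this comparison 23.6% of all genes were called. With trends in GC content and length removed, the 3 values at 6 h became -0.25 (adjusted p = 0.0736) for SLC39A10, -0.16 (adjusted p = 0.14) for SLC39A6 and 1.05 (adjusted p = 0.103) for MT2A. MT2A transcripts are 63% GC with an effective length of 745 bases, and SLC39A10 transcripts 37.5% GC with 5022 bases. MT2A also lost its call without Ibuprofen probe 6 h replicate 2, the library at 0.42 CPM (1.38, adjusted p = 0.115).

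At 12 h SLC39A10 was lower with the Ibufenac probe than with the Ibuprofen probe, with 77.4, 87.5 and 78.8 CPM against 110, 110 and 128 CPM (-0.52 ± 0.10, adjusted p = 0.00347; 1.92% of all genes called). With GC and length trends removed it was -0.57 (adjusted p = 0.000144), and without Ibuprofen probe 12 h replicate 3 it was -0.44 (adjusted p = 0.0515). At 18 h edgeR called 0 of the 7 genes between the probes (1 with an unadjusted p under 0.05; 0% of all genes called, 1065 with an unadjusted p under 0.05 and 11 by DESeq2). SLC39A10 then differed by 0.00, with a 95% interval of -0.20 to 0.21.

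As photocaged forms the drugs did not differ detectably in any of the 7 genes, averaged or at 6, 12 or 18 h (edgeR called 0, with 0 at an unadjusted p under 0.05 and 0 by DESeq2 for the average). Of all genes 0.0362% were called in the average and 0% at each time, where 935, 583 and 577 were under 0.05 before adjustment and DESeq2 called 6, 1 and 2. The averaged differences were 0.19 (95% interval -0.15 to 0.52) for MT1X, -0.12 (-0.75 to 0.50) for MT2A, -0.04 (-0.17 to 0.09) for SLC30A1 and -0.03 (-0.15 to 0.09) for SLC39A10. As a bolus they did not differ detectably either, averaged or at single times (edgeR 0 of 7, and for the average 1 with an unadjusted p under 0.05, DESeq2 0). There 0% of all genes were called in the average, with 1342 at an unadjusted p under 0.05 and 12 by DESeq2, and 2.3%, 0.0362% and 0% at 6, 12 and 18 h (for 18 h, 2502 before adjustment and 4 by DESeq2). The averaged bolus differences were -0.12 (-0.44 to 0.20) for MT1X, 0.10 (-0.50 to 0.71) for MT2A, 0.06 (-0.07 to 0.20) for SLC30A1 and -0.12 (-0.24 to 0.00) for SLC39A10. Between the bolus arms at 6 h, 2 of the 7 genes had an unadjusted p under 0.05 in edgeR. SLC39A10 held 57.8 to 65.4 CPM with ibufenac and 72.6 to 83.7 CPM with ibuprofen. Its difference of -0.30 missed in edgeR (adjusted p = 0.0946) and passed without a filter (0.0381). SLC39A6 held 105 to 124 CPM with ibufenac and 127 to 138 CPM with ibuprofen. A p-value that misses the threshold does not show that the drugs act alike.

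**Figure D4:**
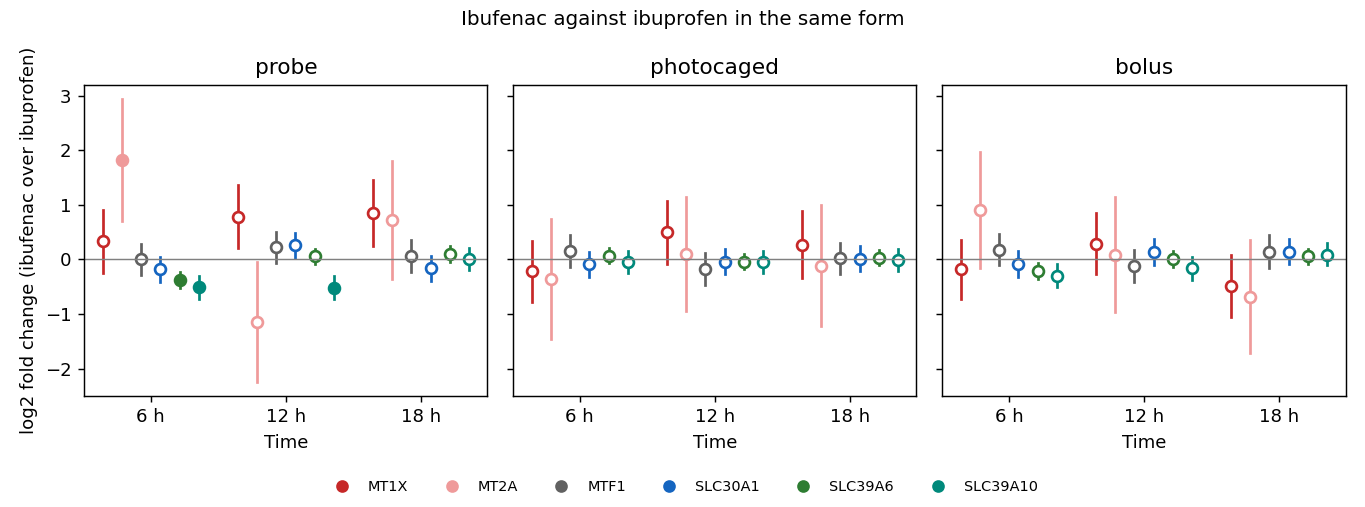
Log2 fold change of ibufenac over ibuprofen in the same form (y axis) at 6, 12 and 18 h (x axis), for probe, photocaged and bolus libraries (panels, 3 libraries each). Points are edgeR estimates with 95% intervals, filled where the adjusted p was under 0.05; the 4 filled points are MT2A (1.82), SLC39A6 (-0.37) and SLC39A10 (-0.51) at 6 h and SLC39A10 (-0.52) at 12 h, all for the probe.

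Other genes of zinc and copper handling were read from 3 lists. Of the other 9 SLC30 genes, most of which move zinc out of the cytoplasm or into vesicles, 8 were tested. In this list 3 rose with the Ibufenac probe, 3 with the Ibuprofen probe, 5 with Ibufenac photocaged, 2 with Ibuprofen photocaged and none with either bolus, and none fell in any of the 6 averaged comparisons. Of all tested genes 13.2%, 8.43%, 7.49% and 4.28% were called in those first 4 comparisons, in either direction. The list's median log2 fold changes were 0.225, 0.16, 0.19 and 0.145 in the probe and photocaged arms in that order, against -0.01, -0.006, -0.002 and 0 for all tested genes. SLC30A5, which with SLC30A6 loads zinc into enzymes of the secretory pathway, rose in all 4 (0.18, 0.19, 0.23 and 0.15, adjusted p = 0.00163, 0.00229, 0.000114 and 0.0313). SLC30A4, a vesicular zinc transporter, rose in 3 (0.27, 0.31 and 0.36, adjusted p = 0.0475, 0.0347 and 0.0111). SLC30A9, a mitochondrial zinc exporter, rose with the Ibuprofen probe (0.13, adjusted p = 0.0329) and with Ibufenac photocaged (0.15, adjusted p = 0.0121). For the Ibufenac bolus and Ibuprofen bolus edgeR called 0 of 8 (1 and 3 with an unadjusted p under 0.05), and the list's medians were 0.045 and 0.1.

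Of the other 12 SLC39 genes, the importers, 10 were tested. With the Ibufenac probe 4 fell and 1 rose, with the Ibuprofen probe 2 fell and with Ibufenac photocaged 1 fell, where 13.2%, 8.43% and 7.49% of all tested genes were called in either direction. The 1 of 10 for Ibufenac photocaged is near that share. In the same list edgeR called 0 of 10 with Ibuprofen photocaged, the Ibufenac bolus and the Ibuprofen bolus (2, 4 and 2 with an unadjusted p under 0.05). SLC39A8, a zinc and manganese importer, fell with the Ibufenac probe (-0.32 ± 0.06, adjusted p = 0.000378), at 24.3 CPM against 29.3 CPM in DMSO, and was also lower than with the Ibuprofen probe (-0.34 ± 0.06, adjusted p = 0.000863). SLC39A9, a Golgi zinc transporter, fell with the Ibufenac probe (-0.13 ± 0.04, adjusted p = 0.0146) and Ibufenac photocaged (-0.15 ± 0.04, adjusted p = 0.00613). SLC39A7, which releases zinc from the endoplasmic reticulum, fell with both probes (-0.18 ± 0.05, adjusted p = 0.0115 for ibufenac and -0.16 ± 0.05, adjusted p = 0.0411 for ibuprofen). The list's median log2 fold changes for the Ibufenac and Ibuprofen probes were -0.145 and -0.11, against -0.01 and -0.006 for all tested genes.

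Of 9 copper-handling genes, all tested, ATP7B, a copper-exporting ATPase, fell with the Ibufenac probe (-0.28 ± 0.06, adjusted p = 0.000697). ATP7A, the related ATPase, rose with the Ibuprofen probe (0.22 ± 0.06, adjusted p = 0.0109). In each of these 2 comparisons that is 1 of 9 genes, near the share called among all genes (13.2% and 8.43%), so the count says nothing particular to copper handling. In the other 4 averaged comparisons edgeR called 0 of 9, with 1 at an unadjusted p under 0.05 in each photocaged arm and 0 in each bolus arm.

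**Figure D5:**
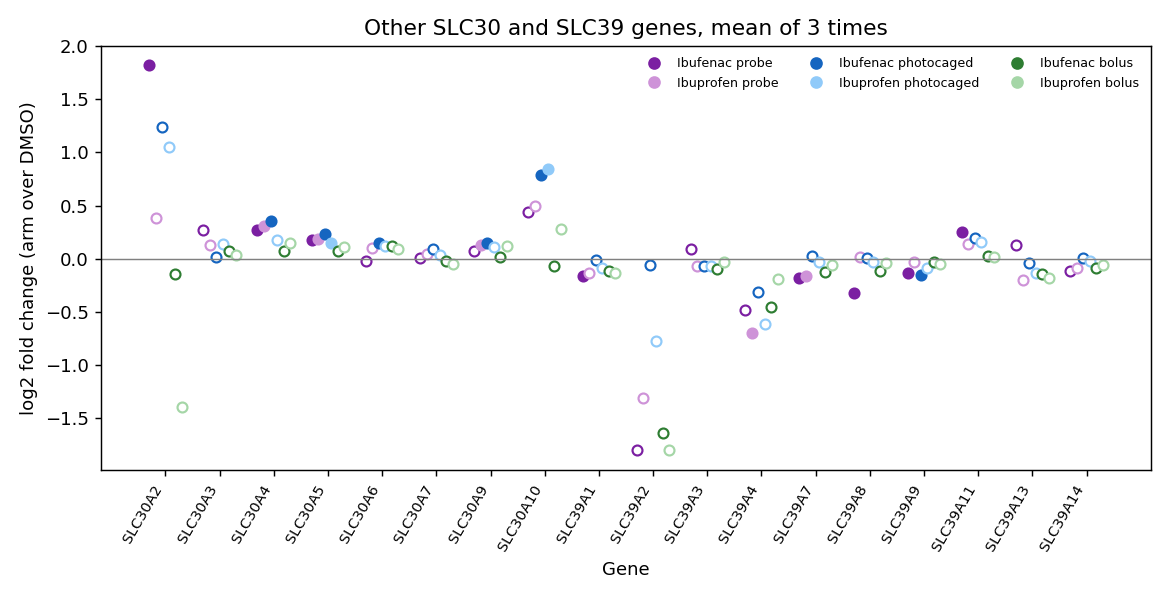
Log2 fold change of each arm over DMSO, averaged over the 3 times (y axis), for the 18 tested SLC30 and SLC39 genes that are not among the 8 (x axis), with 1 point per arm, filled where the edgeR adjusted p was under 0.05. The filled points of the SLC30 genes all lie above 0 and those of the SLC39 genes lie mostly below it; SLC30A2 and SLC39A2, picked out here after their values were seen, had medians of 0.338 and 0.116 CPM.

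Across the 21 group means, which share time points, controls and library composition, log2 levels of MT1X and SLC30A1 correlated at r = -0.75, MT1X and SLC39A10 at -0.78, and SLC30A1 and SLC39A10 at 0.72, whereas MT1X and MT2A correlated at 0.28. The genes with the most similar patterns were SEH1L (r = 0.91), PIGL (0.90) and MRTO4 (0.88) for MT1X, and NDUFA3 (0.94), PAK4 (0.93) and NDUFV1 (0.93) for MT2A. For MT1F they were ALDH1B1 (0.81), UBE2C (0.72) and NDUFB10 (0.71), and for MTF1 CORIN (0.86), MIRLET7IHG (0.85) and ZNF26 (0.85). For SLC30A1 they were ACER2 (0.96), ARHGAP42 (0.95) and TIGAR (0.93), for SLC39A6 RBBP9 (0.82), PXYLP1 (0.80) and UBE2E3 (0.80), and for SLC39A10 OTUB2 (0.92), APOL2 (0.90) and RNFT1 (0.89). The search covered tested genes averaging 1 CPM or more, and these values are a description.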

How the data were processed

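Total RNA was depleted of ribosomal RNA (Ribo-Zero) and made into stranded TruSeq libraries, per the labels. The authors deposited expected counts and FPKM per gene and library; which aligner, counter, strand setting and build they used is not given in the sources used here. Expected counts were rounded to whole numbers. Genes passing edgeR's filter (minimum count 10) were fitted over all 21 groups with TMM scaling and edgeR 4.0.16's quasi-likelihood test in R 4.3.3 (limma 3.58.1), two-sided, with Benjamini-Hochberg adjustment over 19352 genes within each of 45 comparisons and a threshold of 0.05. Intervals are 95%. Fold changes come from the edgeR fit with its default prior count. Log2 CPM, used for the correlations, have a prior count of 2, and CPM carry TMM factors.

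Members and gene lists were chosen with earlier results of these data known. All 8 members are described; from each list up to 3 called genes with the smallest adjusted p are named. Alternatives were DESeq2 1.42.0, RLE factors, no filter, a replicate block, only the 2 arms compared, leaving out each library, and GC and length offsets, the last chosen after seeing the data. The analysis was tested on simulated data. No pair of replicate libraries looked like 1 library deposited again (lowest chi-square per degree of freedom 5.09).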

Additional observations from a re-analysis of the deposited data

Results flagged for a closer look

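For 3 of the 7 tested genes the effect of the arms differed between 6, 12 and 18 h by the arm by time interaction (edgeR). SLC39A6 gave adjusted p = 0.000356, with the Ibufenac probe below DMSO at 6 h (-0.33 ± 0.07) and above it at 18 h (0.24 ± 0.07). SLC39A10 gave adjusted p = 0.0213, with the Ibufenac probe at -0.54 ± 0.10 from DMSO at 6 h and -0.08 ± 0.10 at 18 h. MTF1 gave adjusted p = 0.04, although no arm passed against DMSO at any single time. Of all tested genes 22.8% passed this test.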

How the results depend on the processing

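No called result changed direction in any alternative. Counts of called members that moved by more than 1.5 times, or to or from 0, were as follows; the count for single times against DMSO (8) stayed within that, at 8 to 12, the highest with DESeq2 and 11 without a filter. For the Ibufenac bolus against DMSO (1 of 7) there were 2 without a filter and 0 with only the 2 arms fitted. Calls among all genes there numbered 2 with the settings used throughout, 194 without a filter and 0 with the 2 arms. For the Ibuprofen bolus against DMSO (0) there was 1 without a filter, with the replicate block, with GC and length offsets and with DESeq2, in each case SLC39A10. Among all genes the calls were 436, 6, 4 and 38 in those settings, and 5 with the settings used throughout. For the Ibufenac probe against the Ibuprofen probe (2) there was 1 with only the 2 arms fitted, where calls among all genes went from 546 to 766. For single-time drug pairs (4) there was 1 with GC and length offsets. Between the probes these offsets took calls among all genes from 4573 to 2489 at 6 h and from 372 to 556 at 12 h. For the Ibufenac probe against Ibufenac photocaged (1) there were 2 without a filter, with the block and with DESeq2, the second being SLC30A1. Among all genes the calls were 549, 514 and 686 in those settings, and 519 with the settings used throughout. For the Ibuprofen probe against Ibuprofen photocaged (0) there was 1 without a filter and with GC and length offsets, again SLC30A1. Among all genes the calls were 270 and 50 in those settings, and 19 with the settings used throughout. For DMSO between times (1) there were 2 without a filter, with the block and with DESeq2, and 3 with GC and length offsets. In that order of settings, calls among all genes were 856, 734, 978 and 1659 for 12 h against 6 h, from 739. They were 1490, 999, 1440 and 771 for 18 h against 12 h, from 1019. The cause was not tested.

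Leaving out 1 library at a time gave 5 to 9 calls for single times against DMSO (8, and 5 without DMSO 6 h replicate 3). It gave 3 to 5 for single-time drug pairs (4), 5 to 7 for forms against the bolus (6) and 2 to 4 for the interaction (3). The range was 1 to 2 for Ibufenac photocaged against DMSO, the Ibufenac probe against Ibufenac photocaged, the Ibufenac probe against the Ibuprofen probe and DMSO between times. For the Ibuprofen bolus against DMSO it was 0 to 1. The 6 calls against the bolus were 2 of 7 each for Ibufenac photocaged (6.05% of all genes), the Ibuprofen probe (3.7%) and Ibuprofen photocaged (3.43%). For the Ibufenac probe there were 0 of 7 (11.2%). Calls among all genes were not recorded for the fits without 1 library.

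Replicate numbers did not pair the libraries: 12 of 630 same-numbered pairs had deviations correlated above 0.1 (mean 0.001). With the replicate block 78 of 83 results kept their direction and side of the threshold. With at most 11 counts per library, MT1F gives no precise difference, and MT1E, with none, gives no difference at all.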
